A study of Mus musculus with 16 samples.

Results

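The comparison described here is the spinal cord of Nova double knockout (dKO) mouse embryos against wild type (WT) spinal cord, taken as the samples titled dKO spinalcord 1 to 4 and WT spinalcord 1 to 4. These are 8 of the 16 arrays of the study, 4 of each genotype, and the other 8 are brain arrays of the same genotypes. Every embryo belonged to the outbred CD1 strain and was taken at the embryonic stage E18.5, and both Nova1 and Nova2 are targeted in the double knockouts. The labels do not describe the alleles, so the deleted exons are not known here. Total RNA of each sample was measured on 1 Affymetrix exon array, which carries several probe sets for most genes, each a small group of probes for 1 short stretch of the gene. The design text gives each array its own biological replicate.

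Nova1 and Nova2 are RNA-binding proteins of neurons with KH-type RNA-binding domains. They bind clusters of a short motif in pre-mRNA and regulate alternative splicing: binding in or before an alternative exon tends to keep it out of the mRNA, and binding after it tends to bring it in. Many of their known targets encode proteins of the synapse, the cytoskeleton and cell adhesion. In the spinal cord, Nova1 is prominent in the ventral cord and hindbrain, where motor neurons and inhibitory interneurons lie.

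Values are on the scale log2(intensity + 16), on which the change of a dim probe set is understated. A gene level is the median over the gene's probe sets that carry 1 gene symbol and lie above a floor of 6.73. The mean of a probe set over all 16 arrays is set against the floor, so 1 group can lie below it. The exon index of a probe set is its log2 value minus its gene's level on the same array, so that an index of 0 is a probe set as bright as the median of its gene and a change in the index is a change relative to the gene. Cassette exons, other transcript ends and sequence variants under the probes all act on the index and cannot be told apart here. Changes are double knockout minus wild type in log2 units with the standard error (SE), and a change was called where limma's moderated test gave a Benjamini-Hochberg adjusted p under 0.05 over all features. Groups are said to be separated where all 4 arrays of one genotype lay beyond all 4 of the other.

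The arrays carried the marks of cord. Hoxc8, which patterns the trunk, lay between 10.52 and 10.88 on the cord arrays and between 5.12 and 6.69 on the brain arrays, and Chat, the enzyme that makes acetylcholine in motor neurons, lay between 7.70 and 8.19 against 6.89 to 7.51. The motor neuron gene Isl1 went the other way, at 7.27 to 8.04 in cord against 7.80 to 9.12 in brain, and did not mark cord. Median probe set intensity ran from 99.5 to 116.2 over the cord arrays, with wild type array 1 the brightest, and gene levels correlated at 0.9294 to 0.9772 between pairs of cord arrays. RNA of skeletal muscle set 4 cord arrays apart from the rest. The muscle score, the mean level of 33 muscle genes, was 9.13, 7.62, 7.58 and 8.49 on wild type arrays 1 to 4 and 7.45, 8.67, 7.61 and 8.30 on double knockout arrays 1 to 4, against 7.02 to 7.19 in brain. Wild type arrays 1 and 4 and double knockout arrays 2 and 4 were over 8, so each genotype had 2 muscle-rich and 2 muscle-poor arrays. By Xist and Eif2s3y, both muscle-rich wild type arrays were female and both muscle-poor ones male. Sex and muscle thus cannot be told apart within the wild type. The double knockout group held 3 females and 1 male, and both of its muscle-poor arrays were female.

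The targeted genes were low in every double knockout cord. The level of Nova1 was 11.94, 11.66, 11.52 and 11.65 on wild type arrays 1 to 4 and 6.38, 6.28, 6.54 and 6.33 on double knockout arrays 1 to 4. Nova2 stood at 8.63, 8.23, 8.61 and 8.39 in the wild type and at 7.39, 7.17, 7.41 and 7.31 in the double knockout. The genotypes did not overlap for either gene, so the labels of all 8 arrays match these levels, and the changes were -5.31 (SE 0.171, adjusted p = 8.94e-14) and -1.14 (SE 0.11, adjusted p = 2.43e-06). All 7 probe sets of Nova1 fell, by 2.17 to 7.77 with a median of -5.5. Of the 16 probe sets of Nova2, 12 passed the test lower, 8 of them by more than 1, and 4 changed by less than 0.5, so the loss of signal was uneven over the probe sets of Nova2.

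Exon-level change was called in a small share of the probe sets in double knockout cord, spread over many genes. The exon index of 750 probe sets passed the test, 0.388% of the 193126 tested, with 454 higher and 296 lower, in 528 genes (4.28% of the 12340 genes tested). The genotypes were separated for 746 of the 750, where 5.69% of all probe sets were separated. Most of the genes had a single such probe set: 420 had 1, 68 had 2 and 40 had 3 or more. The change was over 1 log2 unit for 189 probe sets, 119 higher and 70 lower, and over 2 for 23. Most of the called probe sets, 464 of the 750, lay in 365 genes whose level was not called. An index can also change because the other probe sets of the gene moved, and the probe set's own log2 value passed the test in the same direction for 423 of the 750 (220 higher and 203 lower). In genes whose level fell, 172 called probe sets had a higher index and 53 a lower one. The count of 750 was 344, 348 and 332 without double knockout array 2, 3 or 4, and 200 when the 8 cord arrays were fitted alone.

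Several of the largest rises were in genes of the synapse and of the neuronal membrane. Grik2 encodes a kainate-type glutamate receptor subunit. The index of its probe set 4489731 was -3.81, -3.95, -3.66 and -3.90 on wild type arrays 1 to 4 and -1.05, -0.91, -0.78 and -0.79 on double knockout arrays 1 to 4. Every double knockout array lay far above every wild type array, a rise of 2.95 (SE 0.177, adjusted p = 5.72e-07), while the level of the gene changed by 0.31 without passing the test. Probe set 5060679 of Ank3, which encodes ankyrin-G, the scaffold of the axon initial segment, had indices of -3.43, -3.63, -3.87 and -3.33 in the wild type and of -0.58, -0.73, -0.75 and -0.62 in the double knockout. The genotypes were again wide apart (2.90, SE 0.181, adjusted p = 9.03e-07), and the probe set's own mean log2 value went from 7.0 to 9.78. Adam22, a synaptic receptor for LGI proteins, had indices of -3.18, -3.25, -2.91 and -2.99 against -0.48, -0.58, -0.45 and -0.59 at probe set 4415391, without overlap (2.56, SE 0.164, adjusted p = 9.06e-07). Its probe set 4785224 rose by 2.08.

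Gphn encodes gephyrin, the scaffold that anchors glycine and GABA-A receptors at inhibitory synapses. Its probe set 4309091 had indices of -1.47, -1.67, -1.42 and -1.30 on wild type arrays 1 to 4 and of 0.71, 0.75, 0.92 and 0.72 on double knockout arrays 1 to 4. All double knockout arrays were higher, by 2.24 on average (SE 0.125, adjusted p = 2.97e-07), with no call for the level of Gphn (-0.20). Gphn lies 119 tested genes from Nova1. Mtss1, an adaptor between membranes and actin, stood at -2.52, -2.06, -2.18 and -1.86 against -0.07, 0.01, 0.07 and 0.00 at probe set 4555362 (2.16, SE 0.137, adjusted p = 9.06e-07). The double knockout arrays lay close to 0, so this probe set was as bright as the rest of its gene there and dimmer than it in the wild type. Smarcc2, a subunit of BAF chromatin remodelling complexes, rose by 2.90 at probe set 5174790 (SE 0.31, adjusted p = 2.5e-04), from -3.84, -5.21, -3.66 and -3.81 to -1.15, -1.44, -1.10 and -1.21, with wild type array 2 lower than its group.

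Mapk9, which encodes the stress kinase JNK2, and Neo1, which encodes neogenin, a receptor for netrins and RGM proteins, showed the same separation at smaller size. The index of Mapk9 probe set 5462265 was 0.02, 0.05, 0.14 and 0.43 in the wild type and 1.82, 1.99, 1.80 and 2.08 in the double knockout (1.76, SE 0.131, adjusted p = 4.08e-06). Its own log2 value rose by 1.16 while the level of Mapk9 fell by 0.60. Neo1 probe set 4334084 went from -0.59, -0.60, -0.69 and -0.42 to 0.84, 0.92, 1.06 and 0.71 (1.46, SE 0.109, adjusted p = 4.11e-06), again without overlap. Lrrfip1 had 7 called probe sets of 25, 4 higher and 3 lower, of which 5005578 changed most surely (1.51, SE 0.148, adjusted p = 1.09e-04). Its level was not called (-0.15). In wild type cord the own means of Grik2 4489731 (6.02), Adam22 4415391 (6.50), Smarcc2 5174790 (6.25) and Lrrfip1 5005578 (6.56) were below the floor. These probe sets were tested only because other arrays were brighter. The same holds for Zfp84 (6.09), Nrcam 4319187 (5.76) and Snx6 (5.79), described further on. In double knockout cord the own means of Ptprf 5321146 (5.82), Dlg3 5344442 (6.28) and Gtf2a1 5495762 (5.28) were below the floor. Nova1 4429841 (6.48) and 4340185 (5.06) were below it there too. All of these were likewise tested only because other arrays were brighter.

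The falls were as sharp. Aff3 encodes a nuclear protein of the AF4 family, which acts in transcription elongation. Its probe set 5291502 had indices of 1.25, 1.40, 1.05 and 1.57 on wild type arrays 1 to 4 and of -1.57, -1.22, -1.49 and -1.43 on double knockout arrays 1 to 4. The groups lay on opposite sides of 0 (-2.74, SE 0.122, adjusted p = 3.64e-08), and this was the lowest adjusted p of the probe sets named here. Ptprf, the receptor tyrosine phosphatase LAR, went at probe set 5321146 from -1.60, -1.51, -1.15 and -1.08 to -4.29, -3.77, -3.80 and -3.78 (-2.57, SE 0.141, adjusted p = 2.78e-07). The double knockout arrays were all below, and the probe set's own value fell from 8.32 to 5.82, below the floor. Clasp2, a protein of growing microtubule ends, stood at 0.42, -0.09, -0.02 and 0.08 against -2.07, -1.71, -2.27 and -1.92 at probe set 4448088 (-2.09, SE 0.138, adjusted p = 1.35e-06), so that a probe set of about the level of its gene in wild type cord was well below it in all 4 double knockouts.

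Cdh23, a cadherin known from the tip links of hair cells, had indices of 1.27, 1.53, 1.41 and 1.48 in the wild type and of -0.55, -0.53, -0.33 and -0.50 in the double knockout at probe set 5030559 (-1.90, SE 0.0937, adjusted p = 8.85e-08). No array of one genotype came within 1 log2 unit of the other. Hecw1, a HECT-type ubiquitin ligase, stood at 0.99, 1.05, 1.16 and 1.14 against -0.42, -0.64, -0.40 and -0.41 at probe set 5277374 (-1.56, SE 0.0917, adjusted p = 5.25e-07). Aplp2, a relative of the amyloid precursor protein, stood at 0.00, 0.17, 0.09 and 0.02 against -1.73, -1.54, -1.33 and -1.34 at probe set 5477899 (-1.55, SE 0.112, adjusted p = 3.2e-06). In both genes the 4 arrays of each genotype sat close together and apart from the other genotype. Spna2, which encodes the alpha-II spectrin of the membrane skeleton and was named after its values were seen, fell by 1.48 at probe set 5084491 (SE 0.114, adjusted p = 5.96e-06). Further large changes were rises in the zinc finger gene Zfp84 (2.13, adjusted p = 0.0343) and the adhesion molecule Ncam2 (2.00, adjusted p = 0.0029), and falls in the inositol phosphate kinase Hisppd1 (-2.16, adjusted p = 3.14e-05), in Cecr2 (-1.81, adjusted p = 0.00299) and in the actin-linked adaptor Sorbs2 (-1.60, adjusted p = 0.00625), where wild type array 2, at 0.32, was nearest to the double knockouts. The call of Zfp84 ended without wild type array 2 or 4 or without any 1 double knockout array (adjusted p of 0.0556 to 0.114). Zfp84 lies 162 tested genes from Nova2, and its level rose by 0.59 (adjusted p = 0.0148).

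**Figure D1:**
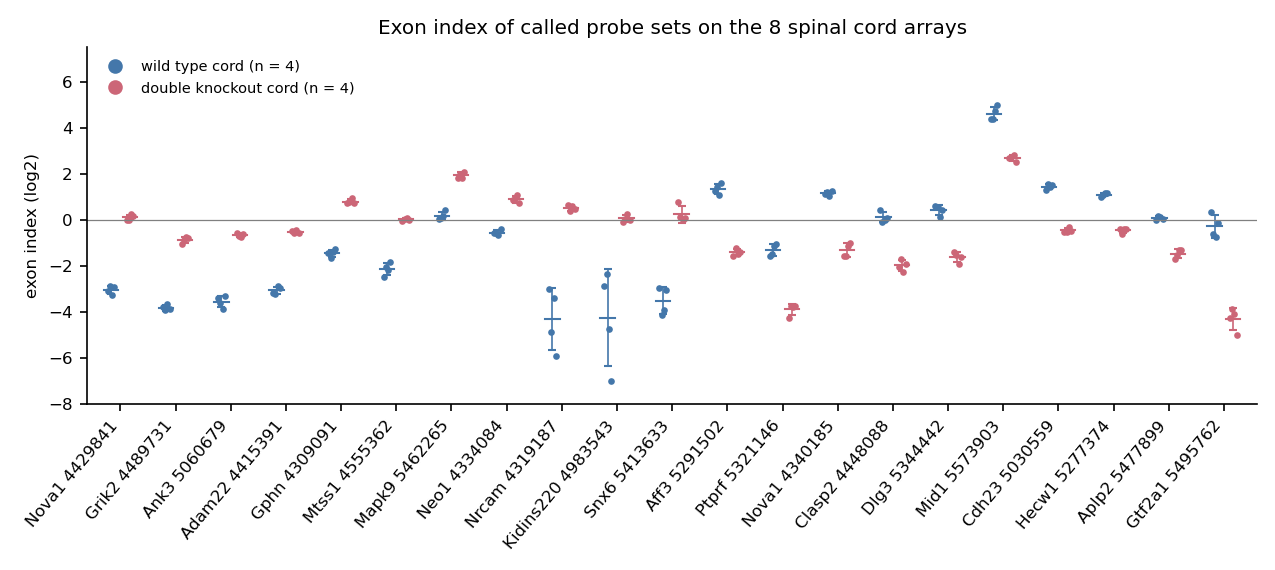
Exon index (log2) of 21 named probe sets on the 8 spinal cord arrays, with points for single arrays, bars for the mean and whiskers for 1 SD of 4 wild type (blue) and 4 double knockout (red) arrays. The genotypes do not overlap in any of them, and the wild type points of Nrcam 4319187 and Kidins220 4983543 are widely spread.

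In some genes the level and the index moved together. Dlg3 encodes SAP102, a scaffold of the postsynaptic density. Its level was 9.20, 8.93, 9.08 and 9.10 on wild type arrays 1 to 4 and 7.79, 7.93, 7.90 and 8.04 on double knockout arrays 1 to 4, a separated fall of 1.17 (SE 0.0923, adjusted p = 4.19e-07). Of its 28 probe sets, 23 passed lower and 1 higher on their own values. Probe set 5344442 fell beyond the gene, with indices of 0.60, 0.56, 0.12 and 0.40 against -1.40, -1.54, -1.93 and -1.65 (-2.05, SE 0.131, adjusted p = 9.06e-07) and an own change of -3.22. Probe set 5485223 went the other way, with an index change of 1.87 and an own rise of 0.70, and probe set 5490651 kept its own value (a change of 0.04) while the gene fell around it. Different stretches of Dlg3 thus read from -3.22 to 0.70 in the same 8 samples.

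Mtap2, the gene of MAP2, which binds microtubules in dendrites, had the most called probe sets: 24 of 35, of which 20 were higher and 4 lower than the gene. The level of Mtap2 was 11.63, 10.86, 11.22 and 11.32 in the wild type and 10.37, 10.36, 10.43 and 10.30 in the double knockout. The groups were separated (-0.89, SE 0.119, adjusted p = 1.26e-04), yet 30 of the 35 probe sets changed by less than 0.5 on their own values and the median of those changes was -0.15. Those that fell by more than 1 numbered 5. With the level taken as the mean over probe sets the change was -0.27 and not called (adjusted p = 0.0974), so the call of this fall depends on how the level of Mtap2 is set.

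Scn9a, which encodes the sodium channel Nav1.7 of pain-sensing neurons, was the reverse: its level rose while 3 probe sets stayed behind. The level was 8.66, 8.42, 7.85 and 8.54 on wild type arrays 1 to 4 and 9.76, 9.57, 9.72 and 9.49 on double knockout arrays 1 to 4. The groups did not overlap (1.26, SE 0.194, adjusted p = 5.54e-04) and 24 of 31 probe sets passed higher. Probe sets 5098510, 4466039 and 4828271 had own changes of -0.19, -0.11 and 0.07 and index falls of 1.45, 1.37 and 1.19. Dzip1, a protein of the base of the primary cilium, fell in level by 1.57 with all 24 of its probe sets separated, and its least changed probe set, 4647800, still fell by 0.51 (index change 1.06, SE 0.0985, adjusted p = 6.28e-05).

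Known Nova targets were counted from a list of 52 genes taken from the literature on these proteins. The study of these arrays is part of that literature, so the list is not independent evidence of change. Of the 48 listed genes with an exon index, 27 (56.2%) had at least 1 called probe set, against 4.28% of all genes. They also carried more probe sets, with a median of 31 against 13. Counted by probe set, 58 of 1822 (3.18%) were called against 0.388% of all, 32 higher and 26 lower. The list holds Nova1 itself; without it 26 of 47 genes and 52 of 1815 probe sets were called. In 15 of the 27 the level of the gene was not called. The 27 genes, with or without a called level, included Ank3, Gphn, Adam22, Ptprf, Aplp2, Clasp2, Dlg3, Mapk9, Neo1 and Lrrfip1. Also among the 27 were the membrane skeleton protein Epb4.1l3 (-1.09 at probe set 5517310) and the calcium-dependent kinase Camk2g (-1.15 at 5282948). The bicarbonate transporter Slc4a10 (-1.27 at 5155297) and the endocytic scaffold Itsn1 (0.94 at 4907127) were others. The synaptic scaffold Cask (-0.67 and -0.80), the tau gene Mapt (0.87) and the NMDA receptor subunit Grin1 (0.84) were there too. The call of Itsn1 4907127 ended without the 4 muscle-rich arrays (adjusted p = 0.068).

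The lists for synapses, ion channels and axon cytoskeleton had called probe sets in 11.8% to 24% of their genes, where 4.28% of all genes had them. They too hold many probe sets per gene, and the shares were not tested against all genes. Among 20 genes of the inhibitory synapse, 4 had called probe sets, all 5 of them higher: besides Gphn these were Gad1, which makes GABA (0.99 and 0.97), the GABA-A receptor subunit Gabra5 (0.69) and the chloride transporter Slc12a5 (0.57). The levels of Gad1, Gabra5 and Slc12a5 fell, and the own values of the probe sets changed by 0.52 and 0.51 in Gad1, 0.11 in Gabra5 and -0.09 in Slc12a5. Among 28 genes of the glutamate synapse 6 had them. In the AMPA receptor subunit Gria3, probe set 4846078 rose by 1.69, from -1.77, -2.61, -2.12 and -2.84 to -0.60, -0.67, -0.60 and -0.70, while probe sets 5369160, 4664652 and 4892057 fell by 0.69, 0.52 and 0.49. The double knockout arrays of Gria3 4846078 lay within 0.1 of each other and above all wild type arrays. In synaptic vesicle and release genes 6 of 33 had called probe sets. The active zone scaffold Rims1 had 5 higher (0.76 to 1.12), and the active zone scaffold Pclo had 1 higher (1.29) and 5 lower (-0.69 to -0.93).

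Potassium channels had 4 called probe sets in 469 (0.853%, against 0.388% of all), a small count whose excess was not tested. There was 1 in each of Kcnc1 (-1.19), Kcna1 (0.78), Kcna4 (-0.59) and Kcnma1 (0.92). Of 28 splicing regulators, 6 had called probe sets (21.4%, against 4.28% of all genes). Apart from Nova1 and Nova2 these were A2bp1, the Rbfox1 gene (0.81 at probe set 4596292), the polypyrimidine tract binding protein gene Ptbp1 (0.79 at 5144132), Cugbp1 (0.52) and Cugbp2 (-0.71), each with an adjusted p between 0.0171 and 0.0486. Their levels were not called. In the lists for cells outside the nervous system, 0 of 25 skeletal muscle genes, 0 of 15 endothelial and pericyte genes and 0 of 20 fibroblast and meninges genes had a called probe set, where 4.28% of all genes had. Among 20 astrocyte genes 1 had (5%), near the share of all genes.

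The very largest index changes lay on the chromosome of Nova1. All 4 called probe sets that changed by more than 3, Nova1 and Nova2 themselves left out, are in genes there, on a chromosome that holds 3.59% of the tested probe sets: Nrcam, 2 tested genes away, Snx6, 16 away, Kidins220, 55 away, and Gtf2a1, 222 away. Their median SE was 0.772 against 0.13 for all called probe sets. Among the 739 called probe sets, 5.55% were on the chromosome of Nova1, and among the 180 over 1 log2 unit 8.33%. The chromosome of Nova2 held 6.96% of the tested probe sets, 8.12% of the called ones and 10.6% of those over 1. Of the 20 over 2 log2 units, 5 (25%) were on the chromosome of Nova1 and 3 (15%) on that of Nova2. Within 50 tested genes of Nova1 or Nova2, 16 of 2371 probe sets were called (0.675% against 0.388% of all).

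Nrcam, a cell adhesion molecule of the L1 family that binds ankyrins, had indices at probe set 4319187 of -3.01, -4.90, -3.41 and -5.94 on wild type arrays 1 to 4 and of 0.63, 0.38, 0.58 and 0.44 on double knockout arrays 1 to 4 (4.82, SE 0.914, adjusted p = 0.031). The double knockout arrays were tight and the wild type arrays spread over nearly 3 log2 units. In brain the same probe set stood at -5.07, -4.68, -4.46 and -5.05 in the wild type and at -6.36, -0.32, -4.92 and -4.81 in the double knockout, so 1 of 4 double knockout brains was high. The cord call ended without wild type array 2 or 4 or without any 1 double knockout array (adjusted p of 0.066 to 0.0937). Nrcam probe set 5264370 behaved otherwise, with 1.55, 1.52, 1.19 and 1.56 against 0.19, 0.23, 0.29 and 0.43 in cord (-1.17, adjusted p = 2.55e-04) and a fall of 1.65 in brain. Both genotypes were tight there.

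Kidins220, a scaffold of neurotrophin receptors, stood at -2.90, -2.38, -4.74 and -7.04 against -0.09, 0.02, 0.26 and 0.00 at probe set 4983543 (4.31, SE 0.719, adjusted p = 0.0132). In brain 3 of 4 double knockout arrays matched the wild type, at -1.65, -1.81 and -1.63 where the wild type had -1.62, -1.54, -1.83 and -1.61, and double knockout brain array 2, the array that was high for Nrcam, was at 0.24. Snx6, a sorting nexin of endosomes, went at probe set 5413633 from -2.99, -4.16, -3.92 and -3.06 to 0.76, 0.11, -0.03 and 0.06 in cord (3.76, SE 0.605, adjusted p = 0.0103), and in brain wild type array 2, at -0.34, was near the double knockout arrays. Gtf2a1, a subunit of the general transcription factor TFIIA, fell by 4.02 at probe set 5495762 (SE 0.826, adjusted p = 0.0473), and its brain values were mixed within both genotypes, between -0.98 and -5.06. The call of Kidins220 ended with the muscle score as a covariate (adjusted p = 0.201), on the 8 cord arrays alone (0.152), with a pseudocount of 1 (0.0564) and without double knockout array 3 (0.0518), and that of Gtf2a1 without any 1 of the 8 cord arrays (0.0767 to 0.156).

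The brain arrays share no array with cord, but the fit gave both tissues 1 estimate of the spread. All 4 double knockout brains were female, against 2 females and 2 males in wild type brain, so sex was not balanced there. The brain arrays gave the same direction for most called probe sets. The sign of the change was the same in brain for 620 of the 750 (82.7%), against 53% of all probe sets. The test was passed in brain too by 184, which is 24.5% of the cord calls and 63.4% of the 290 brain calls (0.15% of all probe sets). Of the 189 probe sets that changed by over 1 in cord, 171 had the same sign in brain and 89 passed there. The sizes were often close: Grik2 changed by 2.95 in cord and 2.87 in brain, Ank3 by 2.90 and 3.07, Cdh23 by -1.90 and -1.88 and Hecw1 by -1.56 and -1.56. Aff3 had -2.74 against -3.85 and Mtss1 2.16 against 1.5.

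**Figure D2:**
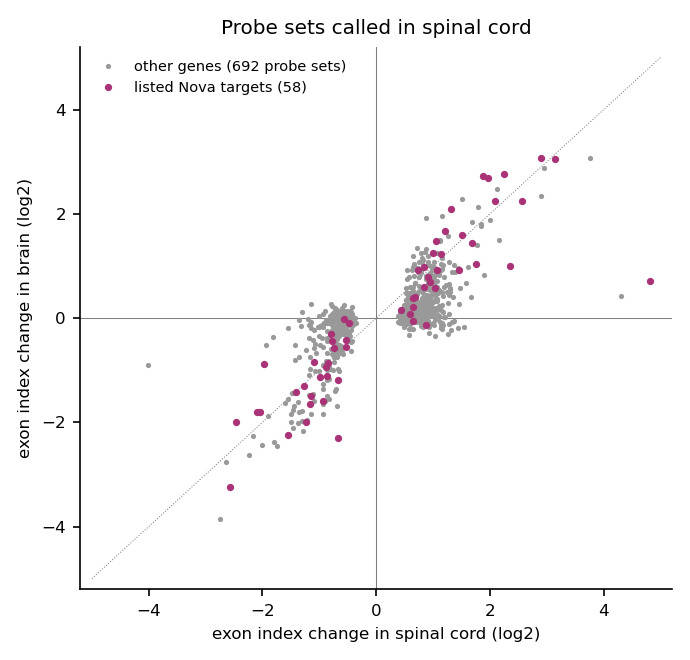
Change in exon index (double knockout minus wild type, log2) of the 750 probe sets called in cord, with cord on the x axis and brain on the y axis, the 58 probe sets of listed Nova targets in colour and the other 692 in grey. Most points lie in the quadrants of equal sign, 620 of 750, and the group near the x axis changed in cord with little change in brain.

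A difference between the tissues in the size of the change was rarely shown. The test of the cord change minus the brain change passed for 1 probe set of 193126 (0.000518%; 10955 had an unadjusted p under 0.05 by limma). That probe set, 4959500 of the membrane skeleton gene Epb4.1l2, stood in cord at 0.34, 0.34, 0.43 and 0.23 in the wild type and at -0.56, -0.27, -0.23 and -0.31 in the double knockout. The cord groups were separated by a small step of -0.68 (SE 0.135, adjusted p = 0.0404), and brain fell by 2.31, a difference of 1.63 (adjusted p = 0.0468). The cord call itself ended without any 1 of the 8 cord arrays (adjusted p of 0.0505 to 0.109). Mid1, a ubiquitin ligase of microtubules, stood in cord at 4.37, 4.35, 4.71 and 4.96 against 2.69, 2.70, 2.81 and 2.49 at probe set 5573903 (-1.93, SE 0.151, adjusted p = 7.43e-06) and changed by -0.52 in brain. All cord arrays of Mid1 were separated by genotype, but its difference between the tissues did not pass (-1.41, adjusted p = 0.157).

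At the level of genes, 820 of 14570 were called (5.63%), 663 lower (4.55%) and 157 higher (1.08%). Groups were separated for 724 of them, where 11.5% of all genes were separated (7.62% wholly below and 3.9% wholly above). Changes were mostly small, with a median of -0.51 among the lower and 0.47 among the higher. More than 1 log2 unit separated the means of 34 lower genes and of 2 higher ones, Scn9a and Cpne3. The median over all genes was -0.03. Without wild type array 1, the brightest, 577 genes were called, 209 of them higher. Without double knockout array 2, 3 or 4 the count was 420 to 425, without wild type array 3 540, and without wild type array 4 1231. As a check on gene levels, 815 of the 820 had the same sign as the median change of their own probe sets, but in 63 that median was under 0.5 of the called change.

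The genes that fell most were Nova1, the tRNA-editing deacylase Dtd1, the Ras-association protein Rassf4, Rwdd2a, the alpha tubulin Tuba4a, the nicotinic receptor modulator Lynx1, Dzip1, the Ras exchange factor Rasgrp2, the synaptotagmin Syt2, the chemokine fractalkine (Cx3cl1), Scrg1 and the neuronal surface protein Thy1. Dtd1 was at 10.04, 9.86, 10.10 and 9.75 on wild type arrays 1 to 4 and at 8.49, 8.15, 8.02 and 8.26 on double knockout arrays 1 to 4 (-1.71, SE 0.119, adjusted p = 6.44e-08). Rassf4 was at 9.35, 9.12, 9.17 and 9.09 against 7.67, 7.28, 7.34 and 7.69, and all 16 of its probe sets were separated. Both genes lay more than 1 log2 unit lower on every double knockout array than on any wild type array. Tuba4a was at 9.91, 9.95, 9.97 and 9.81 against 8.73, 8.13, 8.15 and 8.19, with double knockout array 1 the highest of its group, and Cx3cl1 was at 10.50, 10.17, 10.47 and 9.94 against 9.01, 8.73, 8.76 and 8.73 with the same array highest. Syt2, the calcium sensor of fast release, was at 9.89, 9.74, 9.74 and 9.66 against 8.67, 8.30, 8.02 and 8.18, and Thy1 at 10.42, 10.16, 10.47 and 10.03 against 9.33, 8.86, 8.49 and 8.86. Neither overlapped. No alternative processing ended the call of any of these 12 genes.

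Rises were fewer. After Scn9a came Cpne3, a calcium-dependent membrane-binding copine, at 7.80, 7.64, 7.76 and 7.63 in the wild type and 8.89, 8.87, 8.74 and 8.80 in the double knockout (1.12, SE 0.0983, adjusted p = 6.37e-07), with all 17 probe sets separated. Atg4a, a protease of autophagy, was at 7.72, 7.35, 7.23 and 7.38 against 8.41, 8.35, 8.10 and 8.42 (0.90, SE 0.126, adjusted p = 2.02e-04), also without overlap. Sox11, a transcription factor of young neurons, was at 9.24, 9.13, 9.13 and 9.31 against 9.85, 10.12, 10.21 and 10.02 (0.85, SE 0.154, adjusted p = 0.00244). It is separated in all arrays and lies 50 tested genes from Nova1. Rbm12b (0.81), Ankar (0.75), the RNA-binding protein Mex3a (0.75), Cetn2 (0.74), the cyclin Ccng2 (0.72), Trp53i11 (0.71), the splicing-factor kinase Clk1 (0.68) and the syntaxin Stx4a (0.68) followed. With the floor at the 75th percentile Rbm12b changed by 0.18 and was not called (adjusted p = 0.59). For Ankar, with 3 probe sets, and Cetn2, with 7, the median change of the probe sets was 0.10 and 0.33. Those calls also ended without single arrays: Ankar without double knockout array 2 or 3 and Cetn2 without wild type array 1 or 3 or double knockout array 1, 2 or 4. Leaving out the 4 muscle-rich arrays ended the calls of Sox11 (adjusted p = 0.118), Ankar, Cetn2, Ccng2 (0.219), Trp53i11 (0.0759), Clk1 (0.157) and Stx4a (0.102). Leaving out the 4 muscle-poor arrays ended those of Scn9a (adjusted p = 0.114), Sox11 (0.128), Rbm12b (0.174), Ankar, Mex3a (0.205), Cetn2 and Ccng2 (0.225).

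**Figure D3:**
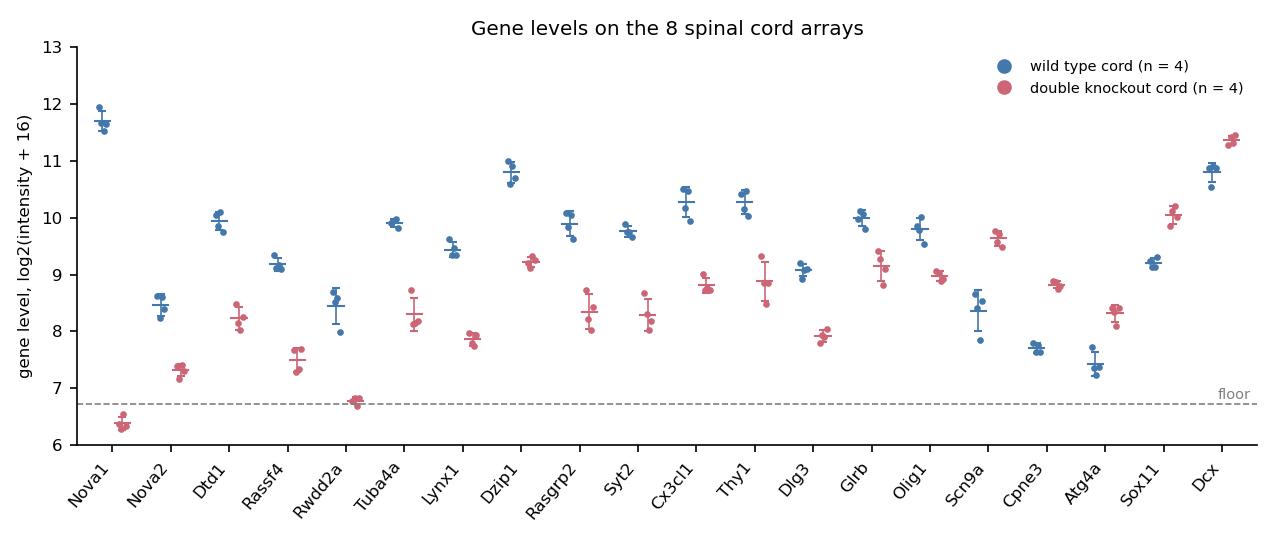
Gene level, log2(intensity + 16), of 20 named genes on the 8 spinal cord arrays, with points for single arrays, bars for the mean and whiskers for 1 SD of 4 arrays per genotype. The double knockout arrays lie wholly below the wild type from Nova1 to Olig1 and wholly above it from Scn9a to Dcx; the dashed line is the floor of 6.73.

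Transmission genes fell in several classes, and none of the lists for them had more than 1 gene that rose. Of 21 genes of the inhibitory synapse 10 fell and 0 rose, with a median of -0.39 beside 4.55% lower and a median of -0.03 for all genes. Glrb, the glycine receptor subunit that binds gephyrin, was at 9.98, 10.11, 10.07 and 9.80 in the wild type and 9.42, 9.27, 8.82 and 9.09 in the double knockout (-0.84, SE 0.115, adjusted p = 1.54e-04), without overlap. Gabra5 fell by 0.59, Slc12a5 by 0.66, the glycine transporter Slc6a5, which marks glycinergic neurons, by 1.15 and the vesicular transporter Slc32a1, which loads GABA and glycine, by 0.71. The mean level of the list was 9.35 to 9.61 over wild type arrays and 8.98 to 9.16 over double knockout arrays. Of 33 synaptic vesicle and release genes 12 fell and 0 rose (median -0.30), led by Syt2, the complexin Cplx1 (-0.86, SE 0.111, adjusted p = 8.87e-05) and the dynamin Dnm1 (-0.63). That count was 7 without double knockout array 2. Of 36 potassium channel genes 12 fell and 1 rose (median -0.25), with Kcnip3 (-0.74) and Kcnab2 (-0.71) first. That count was 7 without double knockout array 3. Since whole cord was measured, fewer cells of a type and less RNA per cell cannot be told apart, here or in the lists that follow.

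Of 28 genes of the glutamate synapse 4 fell (median -0.15), beside 4.55% of all genes, among them the NMDA receptor subunits Grin1 (-0.67) and Grin2a (-0.67) and the AMPA receptor partner Cacng2 (-0.61). The count was 8 without wild type array 4. Of 26 sodium and calcium channel genes 6 fell and 1 rose, Scn9a. The sodium channel gene Scn2a1 fell by 0.52 and, in brain, by 0.54 (adjusted p = 0.00604). Of 27 neurofilament and axon cytoskeleton genes 6 fell and 1 rose: Mtap2 and the synuclein Sncb (-1.16, SE 0.143, adjusted p = 5.19e-05), the microtubule protein Mtap1a (-0.91), the heavy neurofilament Nefh (-0.73), Tuba4a and Tuba1b (-0.43) fell, and the internexin Ina rose by 0.36. Of 27 genes of young neurons 3 rose and 0 fell, with a median of 0.17 and 9 of the 27 below 0: Dcx, a microtubule protein of migrating neurons, at 10.87, 10.54, 10.90 and 10.87 against 11.28, 11.41, 11.32 and 11.45 (0.57), Sox11 and the tubulin regulator Stmn1 (0.37). Dcx and Sox11 did not overlap between genotypes, and the call of Stmn1 (adjusted p = 0.0492) ended without wild type array 2, 3 or 4 or without any 1 double knockout array. The count of rises was 5 without wild type array 1.

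Genes of glia were among the falls. Of 22 astrocyte genes 12 fell and 0 rose, beside 4.55% lower among all genes, with a median of -0.41 in cord and of -0.02 in brain. The lipid carrier Apoe was at 11.90, 11.76, 11.73 and 11.60 in the wild type and 11.22, 11.09, 10.64 and 11.13 in the double knockout (-0.73, SE 0.128, adjusted p = 0.00203), without overlap. Ntsr2, a neurotensin receptor of astrocytes, fell by 0.87 and the amino acid transporter Slc7a10 by 0.76. On the chromosomes of the targeted genes, Apoe lies 31 tested genes from Nova2, Ntsr2 76 from Nova1 and Slc7a10 231 from Nova2. Any part of that position in their changes was not tested. The count of astrocyte genes that fell was 7 without double knockout array 3. Of 16 oligodendrocyte lineage genes 6 fell. Olig1, a transcription factor of the lineage, was at 9.85, 9.79, 10.01 and 9.54 against 9.07, 9.02, 8.88 and 8.92 (-0.83, SE 0.103, adjusted p = 5.35e-05), and the precursor receptor Pdgfra fell by 0.62. The groups did not overlap for Olig1. Of 19 microglia and macrophage genes 5 fell (median -0.37), among them the complement genes C1qb (-0.65) and C1qa (-0.70). Without double knockout array 3 the count was 1, and without wild type array 1 it was 3. In the lists of glycolysis, 5 of 22 fell, with the neuronal enolase Eno2 at -0.88, and of oxidative phosphorylation, 4 of 32. Those counts were 3 to 7 and 3 to 8 with 1 cord array left out, 8 without wild type array 4.

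Identity genes of the cord are read against 4.55% lower and 1.08% higher among all genes. Of 28 Hox genes 0 passed in either direction (median 0.07). Groups were separated upward for 6 of the 28 and downward for 0, where 3.9% and 7.62% of all genes were. Of 27 interneuron transcription factors 1 rose, Maf (0.45), a call that ended without double knockout array 2 (adjusted p = 0.0511). Of 19 motor neuron and cholinergic genes 2 fell, Calcb (-0.87), which encodes a calcitonin gene-related peptide, and Ret (-0.54), the receptor for GDNF-family factors, and Aldh1a2, which makes retinoic acid and is also in the fibroblast and meninges list, rose by 0.49. Aldh1a2 changed by 0.25 among the muscle-poor and by 0.72 among the muscle-rich arrays, and its call ended with the muscle score as a covariate (adjusted p = 0.0616). The calls of Ret and Aldh1a2 ended without single arrays: Ret without wild type array 1, 2 or 3 or double knockout array 2, 3 or 4, and Aldh1a2 without double knockout array 4. Of 23 cell cycle genes and of 17 endothelial and pericyte genes 0 passed. Of 37 axon guidance genes 1 rose, Dcc (0.35, adjusted p = 0.0388), and that call ended without wild type array 2 or 3 or double knockout array 2, 3 or 4.

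**Figure D4:**
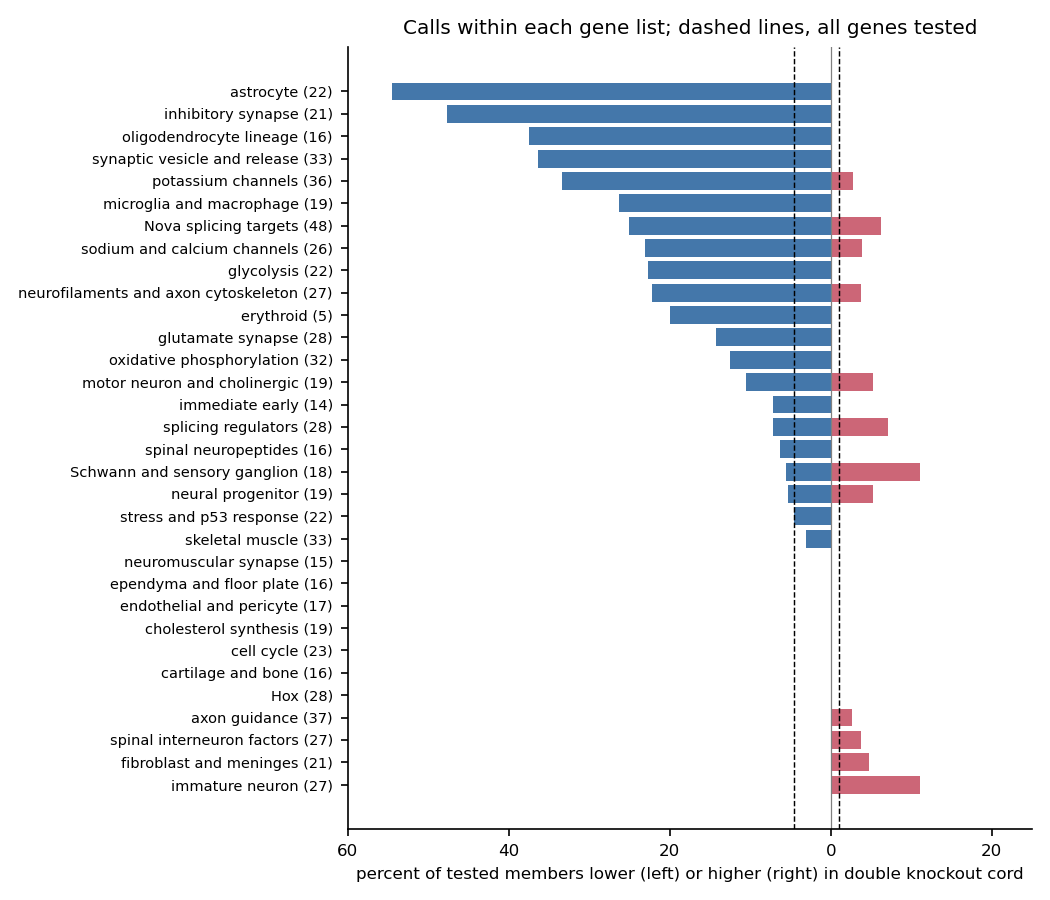
Percent of the tested genes of each list that were called lower (left) or higher (right) in double knockout spinal cord, with dashed lines at 4.55% lower and 1.08% higher for all 14570 genes tested. The lists for astrocytes, the inhibitory synapse, synaptic vesicles and potassium channels reach far left of the line, and those for Hox, cell cycle and endothelial genes hold no called gene.

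Brain gave the same sign for 699 of the 820 called genes (85.2%, against 58.1% of all genes), but smaller sizes. The median change of the 663 lower genes was -0.51 in cord and -0.14 in brain, and of the 157 higher genes 0.47 and 0.13; the cord values are those that chose the genes. In brain 39 genes were called (0.268%), and 33 of them were among the cord calls, 84.6% of the brain list and 4.02% of the cord list. The test of the difference between the tissues passed for 0 genes by limma (1166 had an unadjusted p under 0.05, and the lowest adjusted p was 0.0509), so no gene was shown to respond differently in cord.

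Muscle RNA was then set against these results. Acta1, skeletal muscle actin, was at 11.40, 8.24, 8.64 and 10.11 on wild type arrays 1 to 4 and at 8.17, 10.71, 8.14 and 10.12 on double knockout arrays 1 to 4. Ckm, muscle creatine kinase, was at 10.97, 7.82, 7.99 and 9.59 against 7.31, 9.75, 7.80 and 9.02, and Myh3, the embryonic myosin heavy chain, at 9.80, 6.69, 6.76 and 9.56 against 6.63, 9.08, 6.77 and 8.34. High and low arrays occur in both genotypes. In brain Acta1 lay between 7.95 and 8.21 and Myh3 between 6.26 and 6.53, so double knockout cord arrays 1 and 3 were within the brain range for Acta1 and above it for Myh3. Of the 33 muscle genes 29 lay above the floor on every cord array. In a fit of genotype and muscle score over the 8 cord arrays, 43 genes moved with the score (0.295%), all upward, 22 of them from the muscle list. The score is the mean of that same list, so the rise of those 22 with it is built in. The index of 25 probe sets moved with the score (0.0129%).

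With the muscle score as a term, 571 genes were called, 502 of them among the 820, and 166 probe sets, 147 of them among the 750; the 8 cord arrays alone, without that term, gave 579 and 200. Without the 4 muscle-rich arrays, which leaves 2 against 2 in cord, 100 genes (96 shared) and 111 probe sets (80 shared) were called. The arrays left were 2 male wild types and 2 female double knockouts, so genotype and sex cannot be told apart among them. The lists then had far fewer calls: 1 astrocyte gene, 1 of the inhibitory synapse, 2 of synaptic vesicles and 0 potassium channels were lower. Of the 73 named genes, 47 lost the call of their level without the muscle-rich arrays and 41 without the muscle-poor arrays. The list medians differed between the classes of array. Among muscle-poor and muscle-rich arrays they were -0.49 and -0.35 for astrocytes, -0.21 and -0.45 for the inhibitory synapse, -0.22 and -0.35 for synaptic vesicles, -0.15 and -0.39 for potassium channels and -0.07 and -0.30 for sodium and calcium channels, and those differences were not tested. With the muscle term the counts of lower genes in the first 4 of these lists were 11, 10, 8 and 9. Grik2, Ank3, Adam22, Gphn, Mtss1, Aff3, Ptprf, Clasp2, Dlg3, Mid1, Cdh23, Hecw1, Aplp2, Mapk9, Neo1 and Lrrfip1 were among the 23 of 33 named probe sets whose index calls were kept without the muscle-rich arrays. The other 10 lost them: Nrcam 4319187 (adjusted p = 0.286), Kidins220 (0.123), Snx6 (0.159), Gtf2a1 (0.404), Epb4.1l2 (0.266), Itsn1 (0.068), Zfp84 (0.341), Ncam2 (0.0673), Cecr2 (0.0696) and Sorbs2 (0.252). With muscle score and sex as covariates together 13 of the 33 lost the call, among them Smarcc2 (0.103), Dzip1 4647800 (0.11), Camk2g (0.0657), Slc4a10 (0.0661) and Hisppd1 (0.0661).

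**Figure D5:**
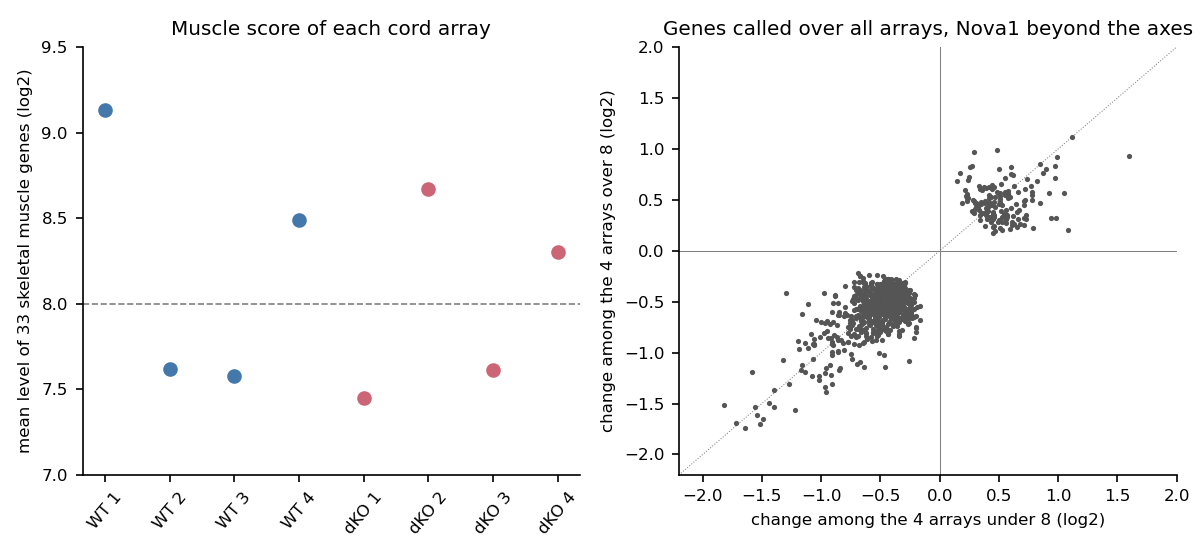
Left, muscle score (mean log2 level of 33 skeletal muscle genes) of each cord array, with a dashed line at 8. Right, change of the 820 called genes (double knockout minus wild type, log2) among the 4 muscle-poor arrays (x axis) and the 4 muscle-rich arrays (y axis), with Nova1 beyond the axes; the genes were chosen on these same 8 arrays, so that equal signs, which all 820 have, are no independent support.

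Among the 33 muscle genes 1 was called by genotype, Tnnt1, at 9.16, 9.72, 8.13 and 8.18 in the wild type and 7.53, 7.63, 7.93 and 7.93 in the double knockout (-1.04, SE 0.3, adjusted p = 0.0457). It did not move with the score (slope 0.02), and its call ended without wild type array 1 or 2 or without any 1 double knockout array. The median change of the list was -0.18, and 0.08 with the muscle term. Fibroblast and meninges genes were high on the 2 muscle-rich double knockout arrays, but not on the muscle-rich wild type arrays. Their mean level was 8.18, 8.05, 8.21 and 8.31 on wild type arrays 1 to 4. On double knockout arrays 1 to 4 it was 8.03, 8.74, 7.96 and 8.90. The median genotype change of these genes was -0.14 among muscle-poor and 0.58 among muscle-rich arrays, with 1 of 21 called over all arrays. Their part in the other changes was not tested.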

How the data were processed

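The deposited intensity of each of 625534 probe sets is on a linear scale (3e-05 to 57832.67). The submitters' processing notes name PLIER, which combines the probes of a probe set, Affymetrix Power Tools and build mm8; their versions and settings are not given here. RNA was taken with Trizol and hybridised as labelled sense target, per the labels' protocols. The platform annotation gives 303629 probe sets 1 symbol, 5892 several and 316013 none; only the first were used, and 14565 of the 14570 genes tested match the RefSeq table of GRCm38.p6.

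Values were taken as log2(intensity + 16). The floor of 6.73 is the median of the mean log2 values. A gene level needed 3 probe sets above it and an exon index 5. All 16 arrays entered 1 fit of group means with limma 3.58.1 in R 4.3.3 (data.table, version 1.17.8), with the two-sided moderated test and Benjamini-Hochberg adjustment at 0.05 within each comparison. The steps were tested on simulated data. With 4 arrays per group, their number limits the precision.

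The comparison, gene lists and naming rule were chosen with earlier results of these data known. The rule named Nova1 and Nova2, the 12 largest separated rises and 12 largest falls of gene level and of exon index (1 probe set per gene, clone-like names skipped), up to 3 called genes per list, up to 15 called target probe sets, 1 per gene, and the largest called differences from brain. Genes and probe sets named outside it were chosen after their values were seen. Identifiers stand for probe sets, since no probe sequence or position was used. Sex was read from Xist and Eif2s3y. Of 8 pairs of brain and cord arrays with the same genotype and number, 5 differ in sex, so those 5 are of different embryos. Replicate numbers were not used as pairs. Alternatives were the pseudocount, floor, normalization, gene-level definition, covariates, array weights and left-out arrays.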

Additional observations from a re-analysis of the deposited data

Results flagged for a closer look

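In groups of 4 arrays, 1 array lay far from the other 3 in 19 of 276 groups examined (6.88%, where chance gives about 5%). In wild type cord, array 1 had a Mex3a level of 8.25 (the others 7.90 to 7.93) and the highest mean levels of the Nova target list (10.17), of sodium and calcium channels (9.23), of endothelial and pericyte genes (8.37) and of cell cycle genes (7.81). Array 2 had Cacng2 at 10.46, Dcx at 10.54 (the others 10.87 to 10.90) and the index of Smarcc2 5174790 at -5.21 (the others -3.84 to -3.66). Array 4 had the index of Itsn1 4907127 at 0.23, where the others were at 0.26 and 0.27, a gap of little size.

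In double knockout cord, array 1 was the highest for Tuba4a (8.73), Cx3cl1 (9.01), Dnm1 (10.57) and Eno2 (10.23), and the lowest for the index of Ptprf 5321146 (-4.29). Array 2 was lowest for the index of Hecw1 5277374 (-0.64) and highest for cartilage and bone genes (8.31). Array 3 had the highest index of Gphn 4309091 (0.92) and the lowest mean levels of splicing regulators (9.63) and of stress and p53 response genes (8.66).

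The change of Epb4.1l2 probe set 4959500 differed between cord and brain by 1.63, by limma's test of that difference (adjusted p = 0.0468).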

How the results depend on the processing

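Of the 820 genes called, quantile normalization gave 1620, of which 27.8% were higher against 19.1%, and leaving out 1 cord array gave 420 to 1231. Counts were 420 to 425 without double knockout array 2, 3 or 4, 540 without wild type array 3 and 1231 without wild type array 4. Without wild type array 1, 36.2% of 577 calls were higher and the median of all genes was 0.02. Without the muscle-rich arrays 100 were called, without the muscle-poor arrays 157, and with muscle score and sex as covariates, chosen after seeing the data, 340. The 750 probe sets called by exon index became 1755 with quantile normalization, 489 with no floor, 200 on the 8 cord arrays alone, 166 with the muscle score as a covariate, 111 and 206 without the muscle-rich or muscle-poor arrays, 39 with muscle score and sex, and 332 to 889 with 1 array left out (332, 344 and 348 without double knockout array 4, 2 or 3). These fits with fewer arrays have fewer degrees of freedom; the other causes were not tested. The genes whose change differed between tissues numbered 0, and 34 with quantile normalization, 11 with the floor at the 75th percentile, 4 with a pseudocount of 64, 1 with no floor, 1 with gene levels as means and 0 to 18 with 1 array left out. The 1 probe set for which it differed was lost (0) with a pseudocount of 1, quantile normalization, no floor or gene levels as means; a pseudocount of 64 gave 3 and leaving out 1 array 0 to 3. The level of Ankar reversed to -0.05 with no floor (adjusted p = 0.879). Under the other alternatives, counts of genes that moved with the muscle score stayed within 1.5 times of 43.

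Same-numbered wild type and double knockout cord arrays did not deviate together (correlations of -0.02, -0.12, -0.04 and 0). Differently numbered arrays had correlations of -0.19 to 0.22. Such values cannot show whether same-numbered arrays shared a litter or a batch. With the replicate number as a block, 1113 genes and 453 probe sets were called. Probe sets dimmer than the floor were not tested.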
